A study of Rattus norvegicus with 12 samples.

Results

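The genes described here are 10 genes that the distal convoluted tubule and connecting tubule of the kidney use to move sodium, calcium and magnesium: Slc12a3, Pvalb, Calb1, S100g, Slc8a1, Trpm6, Trpm7, Trpv5, Klhl3 and Wnk1. They were chosen by symbol, as the table rows annotated with exactly 1 of these names, which gave 11 rows among 36685, with 2 rows for Wnk1 and 1 for each of the others. The genes are 10 of the 18166 that had a single symbol and a value on every array. Rat kidneys were taken after ischemia-reperfusion injury, in which blood flow to the kidney is stopped and then restored, and RNA was measured on 12 arrays in 4 groups of 3: anti-miR-182 at day 2, placebo at day 2, anti-miR-182 at day 7 and placebo at day 7. Anti-miR-182 is an inhibitor of the microRNA miR-182, and all groups, placebo included, had the injury. No uninjured kidney was analysed here. By the animal codes in the titles, each array came from a different animal. The sources used here do not give strain, age, dose or time of dosing.

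The distal convoluted tubule lies beyond the loop of Henle. Its apical sodium-chloride cotransporter, the target of thiazide diuretics, recovers salt under the control of WNK kinases, which are themselves tagged for degradation by a ubiquitin ligase that contains KLHL3. In its later part and in the connecting tubule, calcium enters through the channel TRPV5, is carried across the cell by calbindins and leaves through the sodium-calcium exchanger and calcium pumps, while TRPM6 takes up magnesium. MicroRNAs lower the output of messenger RNAs that pair with their seed.

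The mature sequence of the inhibited microRNA is shown because its inhibitor is the treatment. It comes from RefSeq (GRCr8, chr4:59752249-59752273, minus strand), with the seed, bases 2 to 8, in capitals.
rno-miR-182: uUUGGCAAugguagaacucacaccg

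Upstream regions of 8 of the 10 genes were listed by RefSeq. Those of Slc12a3 and Trpv5 are shown because these genes had the largest log2 differences between the days and the widest spread between the animals given anti-miR-182 and taken at day 2. Each runs from 250 bases before to 50 bases after the start of the gene on GRCr8, Slc12a3 at chr19:10675001-10675300 and Trpv5 at chr4:71529333-71529632, both on the minus strand. Capitals mark a TATA box, searched as TATAAA on both strands.
Slc12a3: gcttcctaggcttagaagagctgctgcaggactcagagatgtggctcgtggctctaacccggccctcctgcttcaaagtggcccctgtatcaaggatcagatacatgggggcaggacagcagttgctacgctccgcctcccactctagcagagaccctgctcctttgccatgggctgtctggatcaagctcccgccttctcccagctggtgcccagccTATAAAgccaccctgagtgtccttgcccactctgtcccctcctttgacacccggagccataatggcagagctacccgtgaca
Trpv5: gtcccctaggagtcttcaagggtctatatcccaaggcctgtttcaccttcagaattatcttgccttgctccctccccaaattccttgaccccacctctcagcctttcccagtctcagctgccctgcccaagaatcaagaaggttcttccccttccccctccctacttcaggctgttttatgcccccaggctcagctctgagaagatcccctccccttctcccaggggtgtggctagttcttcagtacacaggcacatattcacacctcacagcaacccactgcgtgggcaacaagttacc

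The TATAAA letters began upstream of the start of Slc12a3, at position -32, and were in 1 of the 10 windows of the 8 genes, against 14.2% of 33469 windows. The letters GTAAACA, which FOXO factors bind, were in 1 of the 10 windows, one of the 3 listed for Trpm6, against 3.78% of all windows. There they lay downstream of the start, from position 38. Other letters were searched too. GTTAAT (HNF1 half-site) was in 1 window, of Slc8a1, against 7.45% of all windows. AGAACA (steroid receptor half-site) was in 3, of Pvalb and Trpm6, against 20.7%. AGGTCA (nuclear receptor half-site) and TGACGTCA (cAMP response element) were in 0, against 16.2% and 1.83%. The Trpv5 window held 1 CG pair and that of Slc12a3 held 7, where the median over all windows was 7, while the broadly expressed Trpm7 and Wnk1 had 38 and 36. The windows of Pvalb, Klhl3 and Slc8a1 and the first of Trpm6 held 23, 15, 6 and 2. A match of letters is a description and not a site. The genes lay on 9 chromosomes, with Trpv5 and Wnk1 both on chromosome 4.

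Values are log2 signals as deposited, so a difference of 1 is a doubling of signal. Array medians of the tested genes ran from 6.30 to 6.38 at day 7 and from 6.42 to 6.57 at day 2. Principal component 1 carried 51.9% of the variance and split the days. On component 2 (10.2%) the third anti-miR-182 array of day 2 stood apart, at -29.4 where the other arrays lay between -9.18 and 15.4, and the median SD of a gene was 0.179 in that group and 0.112 to 0.146 in the other groups. Precision is limited throughout by having 3 arrays a group. Markers of proximal tubule, thick ascending limb and collecting duct averaged 2.63 to 3.90, 2.27 to 2.84 and 1.05 to 1.75 above the mean of all tested genes over the 12 arrays, and the 10 genes 1.28 to 2.06. A description label calls the tissue a zero-hour biopsy although the titles give day 2 or day 7, and groups follow the titles. In whole kidney RNA, fewer distal tubule cells and less RNA per cell cannot be told apart.

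**Figure D1:**
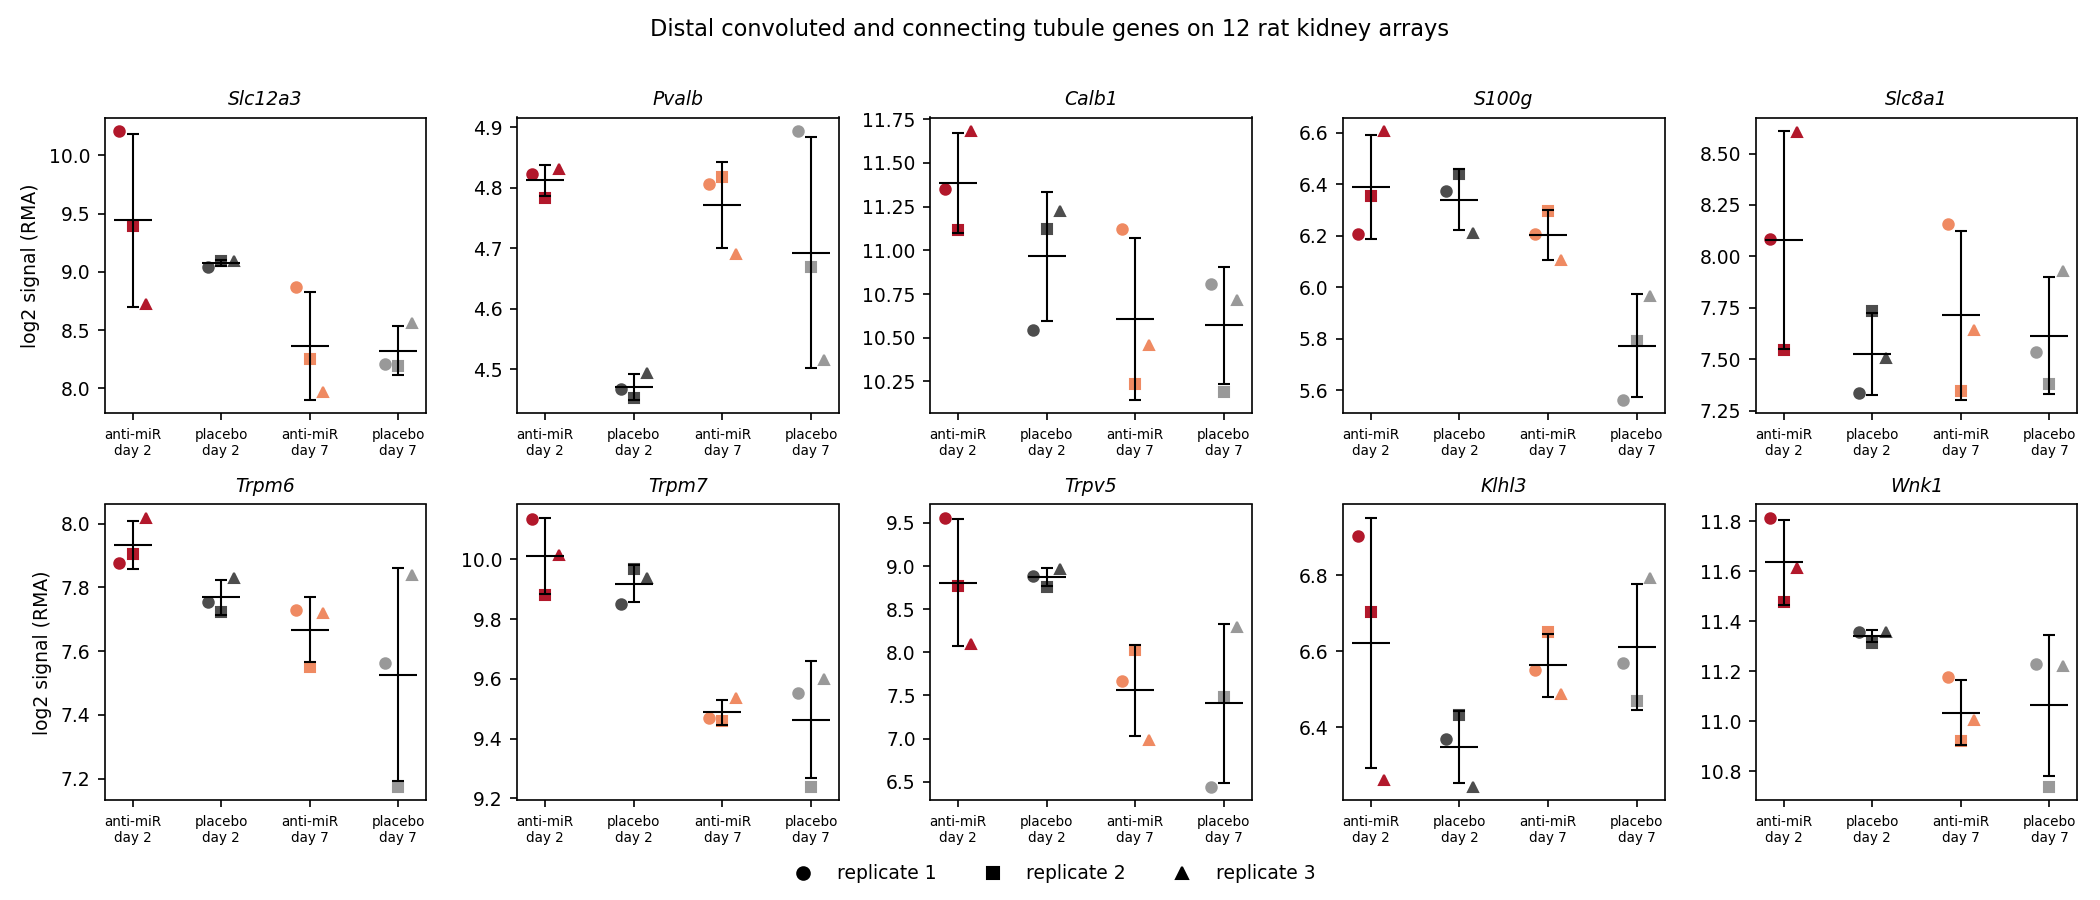
Log2 signal (y axis) of the 10 genes on each array, by group (x axis). Symbols are the 3 replicates, the horizontal bar is the group mean and the error bar 1 SD (n = 3), and Wnk1 is its brighter row. Slc12a3 lies between 8.73 and 10.21 under anti-miR-182 at day 2 and between 9.04 and 9.09 under placebo at day 2, and each panel has its own y range.

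Slc12a3 encodes the sodium-chloride cotransporter. At day 2 its log2 signal was 10.21, 9.39 and 8.73 on the anti-miR-182 arrays, against 9.04, 9.09 and 9.09 on the placebo arrays. The treated animals lay on both sides of a tight placebo group, with SDs of 0.74 and 0.03. The difference of 0.37 ± 0.29 (SE of limma, n = 3 each) did not pass in limma (adjusted p = 0.853), and without replicate 1 of the treated group it was -0.014. Here and below, the SE of a difference rests on a spread that limma shares over the 4 groups and moderates across genes. It therefore does not follow from the SDs of the 2 groups compared. At day 7 the signal was 8.87, 8.25 and 7.97 under anti-miR-182, against 8.21, 8.19 and 8.56 under placebo. These groups overlapped, with a difference of 0.04 ± 0.29.

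Of the regulators of this cotransporter, Klhl3, the substrate adaptor that hands WNK kinases to the ubiquitin ligase, had 6.90, 6.70 and 6.26 under anti-miR-182 at day 2, against 6.37, 6.43 and 6.24 under placebo. The treated animal lowest for Slc12a3 was also the lowest of its group for Klhl3, and the groups overlapped. The difference was 0.27 ± 0.15 at day 2 and -0.05 ± 0.15 at day 7, and neither passed in limma (adjusted p = 0.764 and 0.999).

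Wnk1 encodes a kinase that activates the cotransporter through SPAK, and the kidney also makes a short form of it that lacks most of the kinase domain. Its brighter row, the one tested, had 11.81, 11.48 and 11.62 under anti-miR-182 at day 2, against 11.36, 11.31 and 11.36 under placebo. All 3 treated arrays lay above all placebo arrays, with a difference of 0.29 ± 0.14 (adjusted p = 0.761 in limma). Its dimmer row ran the other way at day 2, with 8.20, 8.11 and 7.52 under anti-miR-182 against 8.40, 8.25 and 8.16 under placebo. In that row the difference was -0.33 ± 0.18 and the groups overlapped, so the sign of the Wnk1 difference depended on the row. The annotation does not say which transcripts each row detects. At day 7 the differences were -0.03 ± 0.14 in the brighter row and 0.14 ± 0.18 in the dimmer one.

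**Figure D2:**
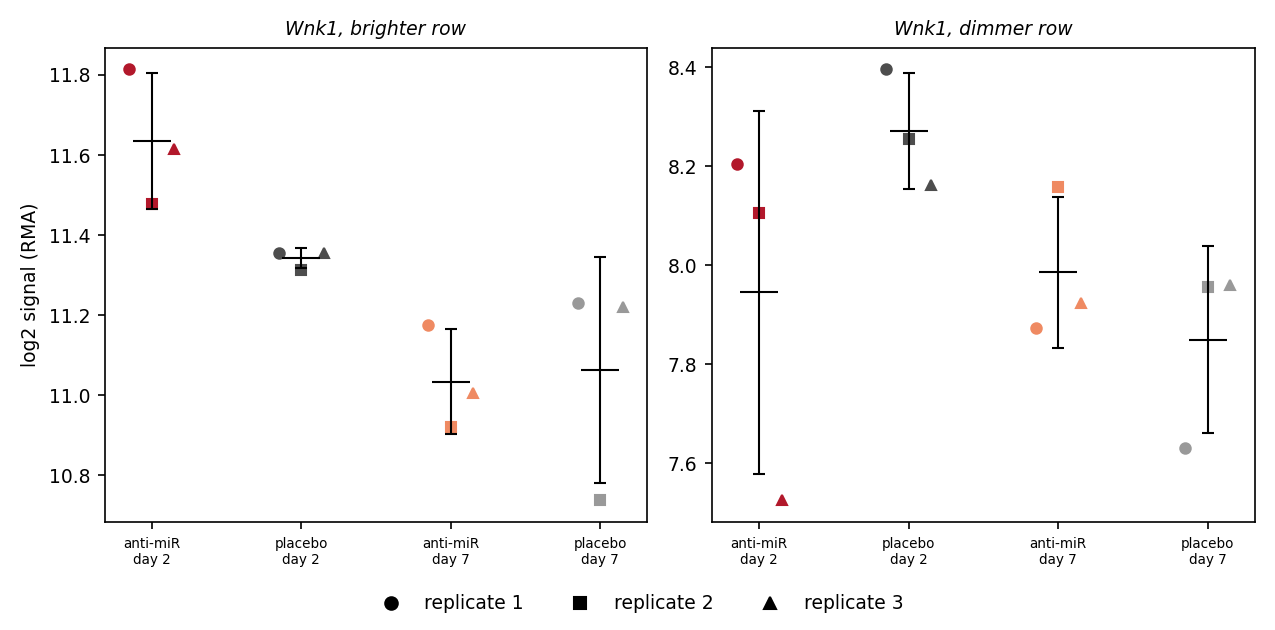
Log2 signal (y axis) of the 2 Wnk1 rows by group (x axis), with the 3 replicates as symbols and bars for mean and SD (n = 3). At day 2 the brighter row averages 11.64 under anti-miR-182 and 11.34 under placebo, while the dimmer row averages 7.94 under anti-miR-182 and 8.27 under placebo.

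Trpv5 is the apical calcium channel of the late distal convoluted and connecting tubule. At day 2 it had 9.56, 8.77 and 8.09 under anti-miR-182, against 8.89, 8.76 and 8.96 under placebo. The treated arrays again lay on both sides of the placebo arrays, with the same animals highest and lowest as for Slc12a3. The difference was -0.06 ± 0.41 and became 0.30 without replicate 3 of the treated group. At day 7 the signal was 7.66, 8.03 and 6.99 under anti-miR-182, against 6.44, 7.49 and 8.29 under placebo. The placebo animals of day 7 spread the most of any group and gene here (SD 0.93), and the difference of 0.15 ± 0.41 did not pass in limma (adjusted p = 0.999).

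Calb1 and S100g encode the calbindins, which buffer calcium and carry it across the cell. Calb1 had 11.35, 11.12 and 11.68 under anti-miR-182 at day 2, against 10.54, 11.12 and 11.23 under placebo. The treated animal that was lowest for Slc12a3 and Trpv5 was the highest for Calb1, and the groups overlapped. The Calb1 difference was 0.42 ± 0.24 at day 2 and 0.04 ± 0.24 at day 7 (adjusted p = 0.77 and 0.999 in limma). S100g had 6.21, 6.36 and 6.61 under anti-miR-182 at day 2, against 6.37, 6.44 and 6.21 under placebo, a difference of 0.05 ± 0.13. At day 7 it had 6.21, 6.30 and 6.11 under anti-miR-182, against 5.56, 5.79 and 5.96 under placebo. Here all 3 treated arrays lay above all placebo arrays, and the difference of 0.43 ± 0.13 had an unadjusted p of 0.00636 and did not pass over all genes in limma (adjusted p = 0.999).

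Slc8a1 encodes the sodium-calcium exchanger through which calcium leaves the cell on the blood side, and it is also made in vascular smooth muscle. At day 2 it had 8.09, 7.55 and 8.61 under anti-miR-182, against 7.34, 7.74 and 7.50 under placebo. The highest treated animal was the same as for Calb1, and 1 treated array lay within the placebo range. The difference of 0.55 ± 0.25, the largest of the 10 at day 2, had an unadjusted p of 0.0434 and did not pass in limma (adjusted p = 0.754). At day 7 the difference was 0.10 ± 0.25. Of 6 vascular smooth muscle markers 4 were measured, and their mean level above that of all genes was 1.19, 0.60 and 0.22 under anti-miR-182 at day 2, against 0.996, 0.914 and 0.994 under placebo. The treated animal highest for Slc8a1 was the lowest for these markers, and the part of smooth muscle in the Slc8a1 values was not tested.

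Pvalb encodes parvalbumin, a cytosolic calcium buffer of the early distal convoluted tubule that fast skeletal muscle also makes. At day 2 it had 4.82, 4.78 and 4.83 under anti-miR-182, against 4.47, 4.45 and 4.49 under placebo. The groups were tight (SDs of 0.03 and 0.02) and did not overlap. The difference of 0.34 ± 0.11 had the smallest unadjusted p of the 10 at day 2, 0.00781, but did not pass over all genes in limma (adjusted p = 0.662). At day 7 the signal was 4.81, 4.82 and 4.69 under anti-miR-182, against 4.89, 4.67 and 4.52 under placebo, with a difference of 0.08 ± 0.11 and overlapping groups. Pvalb was the dimmest of the 10, with 13.7% of the tested genes below it in mean signal, and the table holds no detection calls, so whether this row measured Pvalb above background is not known. Of 8 skeletal muscle markers 5 were measured, and their mean level relative to all genes was -0.85, -1.08 and -0.98 under anti-miR-182 at day 2 and -0.948, -0.973 and -1.003 under placebo, so those groups overlapped.

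Trpm6 encodes the apical magnesium channel of this segment, and Trpm7 its broadly expressed relative, a channel fused to a kinase. Trpm6 had 7.88, 7.91 and 8.02 under anti-miR-182 at day 2, against 7.75, 7.72 and 7.83 under placebo. All treated arrays lay above the placebo arrays by a small step, with a difference of 0.17 ± 0.14 (adjusted p = 0.861 in limma). At day 7 it was 0.14 ± 0.14, with 7.73, 7.55 and 7.72 under anti-miR-182 and 7.56, 7.17 and 7.84 under placebo. Trpm7 had 10.14, 9.88 and 10.02 under anti-miR-182 at day 2, against 9.85, 9.97 and 9.94 under placebo, and differed by 0.09 ± 0.12 at day 2 and 0.02 ± 0.12 at day 7. Neither passed, and the Trpm7 groups overlapped at both days.

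**Figure D3:**
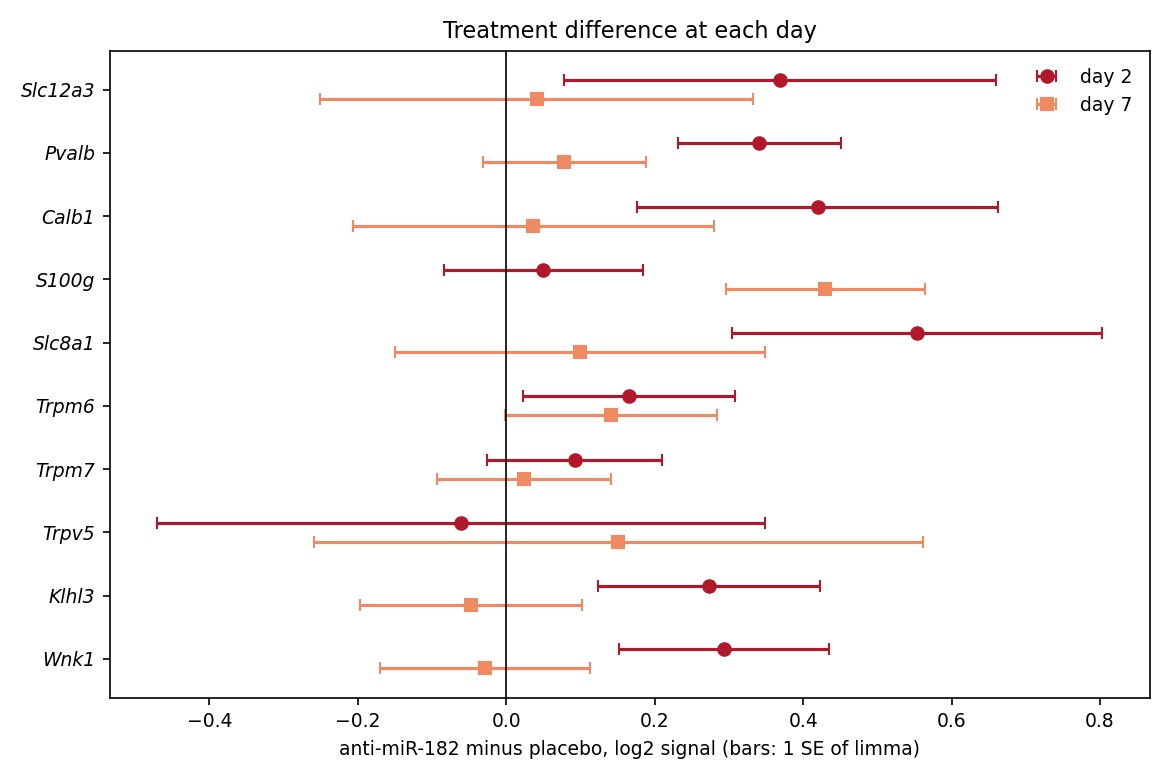
Difference in log2 signal between anti-miR-182 and placebo (x axis) for each gene (y axis) at day 2 and day 7, with bars of 1 SE of limma (n = 3 per group). At day 2 the values run from -0.06 (Trpv5) to 0.55 (Slc8a1), and at day 7 from -0.05 (Klhl3) to 0.43 (S100g).

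In the counts Wnk1 is taken by its brighter row, while its dimmer row had differences of -0.33 at day 2 and 0.14 at day 7. As counts, 9 of the 10 genes had a higher mean in treated than in placebo animals at day 2. The median difference was 0.28, where 58.7% of all genes were higher and their median was 0.033. At day 7 the count was 8 of 10 with a median of 0.06, where 49.8% of all genes were higher. In limma 0 of the 10 passed at either day, with 0% of 18166 genes called at day 2 and 0% at day 7. At an unadjusted p under 0.05 there were 2 of 10 at day 2 (Pvalb and Slc8a1, against 6.61% of all genes) and 1 of 10 at day 7 (S100g, against 3.26%). The arrays of the treated group all lay above those of placebo for 3 of 10 at day 2 (Pvalb, Trpm6 and Wnk1, against 8.06% of all genes) and for 1 of 10 at day 7 (S100g, against 3.5%). Genes of 1 segment share the tissue sample, so these counts are not independent draws.

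Averaged over both days, all 10 genes were higher under anti-miR-182 in the rows tested, by 0.05 (Trpv5) to 0.33 (Slc8a1), where 55.5% of all genes were higher. For Wnk1 this held in its brighter row only (0.13 ± 0.1), and its dimmer row had -0.095 ± 0.125. Of the 10, 0 passed in limma (adjusted p from 0.888 to 0.989), where 0.0055% of all genes were called. At an unadjusted p under 0.05 there were 2 of the 10, S100g (0.24 ± 0.095) and Pvalb (0.21 ± 0.078), against 5.27% of all genes. The Trpv5 value turned to -0.14 when the first anti-miR-182 array of day 2 was left out, to -0.072 without replicate 2 of the treated arrays of day 7 and to -0.20 without replicate 1 of the placebo arrays of day 7. The treatment difference at day 7 minus that at day 2 ran from -0.45 (Slc8a1) to 0.38 (S100g). The dimmer Wnk1 row, left out of these counts, had 0.46 ± 0.25. This difference between days was above 0 for 2 of 10 genes, where 44.5% of all genes were above 0. It passed for 0 of 10, where 0% of all genes passed, and at an unadjusted p under 0.05 the count was 0 of 10, against 3.92% of all genes. A change of the treatment difference with day was therefore not shown for any of the 10.

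Within each group, different animals were highest for different genes. Under anti-miR-182 at day 2, replicate 1 was the highest of its group for Slc12a3, Trpm7, Trpv5, Klhl3 and the brighter Wnk1 row, and replicate 3 was the highest for Pvalb, Calb1, S100g, Slc8a1 and Trpm6. Replicate 3, the array that stood apart, had the lowest Slc12a3, Trpv5 and Klhl3 of the group and the highest Calb1 and Slc8a1. Under placebo at day 2, replicates 2 and 3 were the highest for 4 and 6 genes, under anti-miR-182 at day 7 replicates 1, 2 and 3 for 5, 4 and 1, and under placebo at day 7 replicates 1 and 3 for 3 and 7. After the mean of each day was taken off, the root mean square difference over the 12 arrays was 0.195 between Calb1 and Slc8a1. Other pairs lay closer, among them Trpm7 and Wnk1 (0.107), Trpm6 and Trpm7 (0.114) and Trpm6 and Wnk1 (0.132). This measure is small where both genes vary little. From Slc12a3 it was smallest for Klhl3 (0.265), and it was 0.411 for Trpv5, above the 0.39 of Slc12a3 itself. The measure is also large where 1 gene varies more than the other, as Trpv5 did under placebo at day 7 (SD 0.93, against 0.21 for Slc12a3). In the same group, the mean level of 13 collecting duct markers above that of all genes was 1.75, 1.38 and 1.34, against 1.21 to 1.40 under placebo. For 10 proximal tubule markers it was 3.34, 3.902 and 3.895, against 3.77 to 3.86 under placebo. For 8 tubular injury markers it was 1.98, 2.04 and 1.16, against 2.14 to 2.35 under placebo. Replicate 1 was thus high for collecting duct and low for proximal tubule, and replicate 3 low for injury markers, and the part of these in the distal tubule values was not tested.

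**Figure D4:**
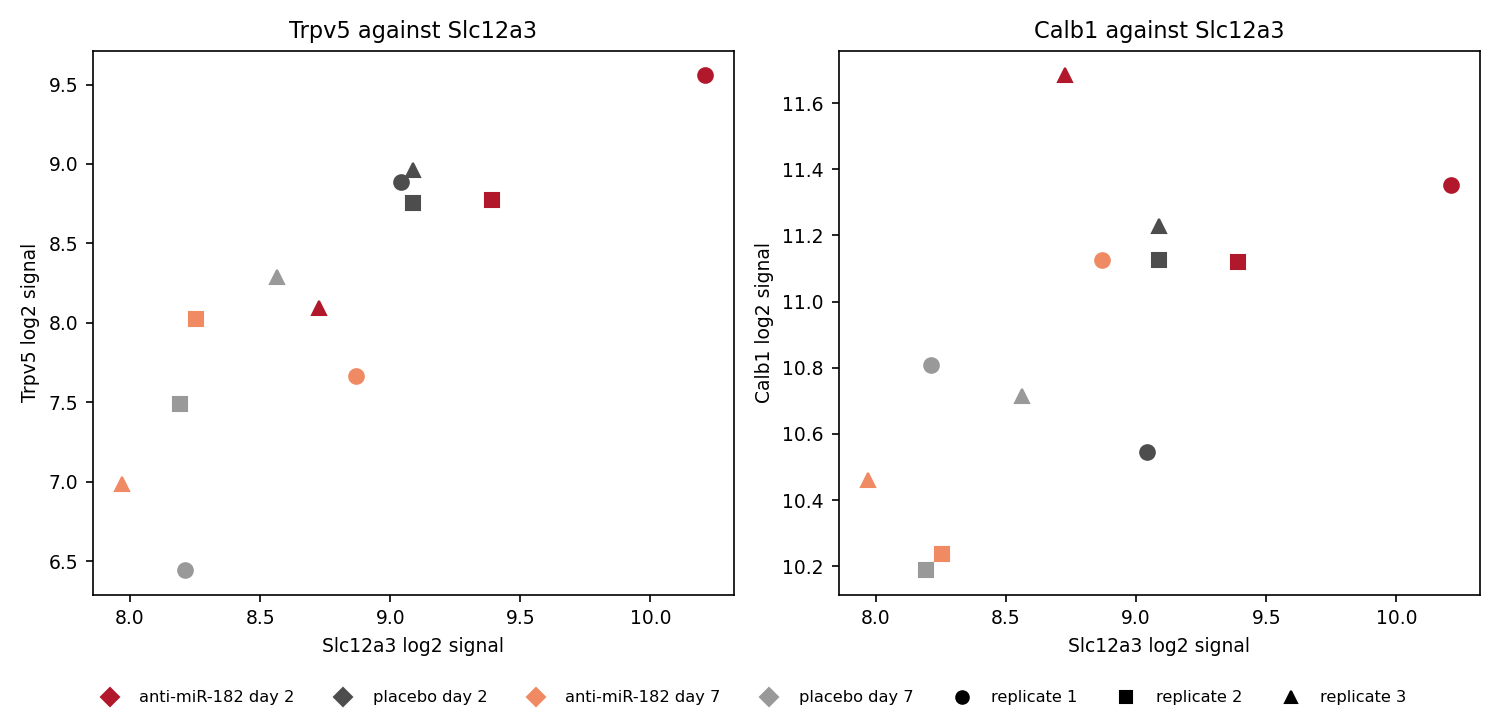
Log2 signals of Trpv5 and of Calb1 (y axes) against Slc12a3 (x axis) on the 12 arrays, with colours for groups and symbols for replicates. Replicate 3 of anti-miR-182 at day 2 has 8.73 for Slc12a3 and 8.09 for Trpv5, below the placebo arrays of its day, and 11.68 for Calb1, above them.

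By the same measure, the genes outside the 10 that ran closest to Slc12a3 were Degs2, a sphingolipid desaturase and hydroxylase (0.202), Aplnr, the apelin receptor (0.23), and Gdf2, a BMP-family ligand (0.238), where the root mean square of Slc12a3 itself was 0.39. Closest to Calb1 (0.335) were the kallikrein-related Klk1c3 (0.152), the aldosterone-responsive kinase Sgk1 (0.189) and the interleukin Il21 (0.205). Closest to Trpm6 (0.166) were Pigh (0.0745), Barhl2 (0.0778) and Cstdc2 (0.0808). The median gene differed from these 3 by 0.408, 0.38 and 0.227. Klk1c3 belongs to a family of near-identical genes whose rows may share signal. The likeness is a description over 12 arrays chosen from 18166 genes.

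A wider list of 23 genes that control sodium chloride transport in the distal nephron had 19 measured, and at day 2 the signals of 14 were higher and of 5 lower in treated animals. The median difference was 0.099 and 0 passed the test. Over both days the smallest unadjusted p-values belonged to the potassium channel Kcnj10, which sets the voltage of the basolateral membrane (0.61 ± 0.17 at day 2, 0.02 ± 0.17 at day 7), Sgk1 (0.52 ± 0.17 and 0.06 ± 0.17) and the phosphatase inhibitor Ppp1r1a (0.59 ± 0.23 and 0.12 ± 0.23). A list of 20 genes of calcium and magnesium transport and its hormones had 16 measured, with 11 higher and 5 lower at day 2, a median of 0.037 and 0 past the test. Its leading genes were Kl, which encodes klotho, a coreceptor for FGF23 (0.25 ± 0.14 at day 2 and 0.28 ± 0.14 at day 7), Egf, whose product stimulates magnesium uptake through TRPM6 (1.02 ± 0.34 and -0.05 ± 0.34), and the potassium channel Kcna1 (0.29 ± 0.19 and 0.20 ± 0.19). At day 7, 8 of 19 genes of the sodium list and 9 of 16 of the calcium list were higher, with medians of -0.019 and 0.036.

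Among neighbouring segments at day 2, the median difference was 0.23 for 13 collecting duct genes (11 higher), 0.051 for 8 thick ascending limb genes (5 higher) and -0.11 for 10 proximal tubule genes (2 higher). At day 7 these medians were -0.18, 0.0041 and 0.26. Tubular injury genes had -0.53 at day 2 and -0.0073 at day 7, with Havcr1, the kidney injury molecule, at -0.74 ± 0.33 and 0.43 ± 0.33. Single markers at day 2 were the thick limb genes Umod (0.37 ± 0.15) and Slc12a1 (0.09 ± 0.25), the water channel Aqp2 (0.06 ± 0.21) and the proximal phosphate transporter Slc34a1 (-0.15 ± 0.21). For macrophage and lymphocyte markers the median was 0.031 at day 2 (5 of 6 higher) and -0.39 at day 7 (0 of 6 higher). For skeletal muscle it was 0.083 (3 of 5 higher) and -0.086 (0 of 5), for vascular smooth muscle -0.21 (0 of 4) and -0.042 (1 of 4), and for endothelium 0.13 (4 of 4) and -0.097 (1 of 4), at day 2 and day 7 in that order. In limma 0 genes of these lists passed for treatment at either day or over both.

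Between day 7 and day 2, most of the 10 genes had lower deposited signals at day 7, as did most of all genes. Higher at day 7 were 0 of the 10 under anti-miR-182, against 23.6% of all genes, and 3 of the 10 under placebo, against 28%. Under anti-miR-182, 5 of 10 fell past the test in limma and 0 rose: Trpm7 (-0.52 ± 0.12, adjusted p = 0.00635), Wnk1 (-0.60 ± 0.14, 0.00813), Slc12a3 (-1.08 ± 0.29, 0.0159), Calb1 (-0.78 ± 0.24, 0.0305) and Trpv5 (-1.25 ± 0.41, 0.0368). Of all genes 24.9% were called lower and 2.68% higher. Under placebo, 3 of 10 fell past the test in limma and 0 rose: S100g (-0.57 ± 0.13, adjusted p = 0.00824), Trpm7 (-0.45 ± 0.12, 0.0125) and Trpv5 (-1.46 ± 0.41, 0.0185), with 23.7% of all genes called lower and 4.22% higher. The dimmer Wnk1 row differed by 0.04 ± 0.18 under anti-miR-182, so the Wnk1 call held for 1 of its 2 rows, and under placebo the rows had -0.28 ± 0.14 (brighter) and -0.42 ± 0.18 (dimmer), neither past the test. Without replicate 1 of day 2 or replicate 3 of day 7, the count under anti-miR-182 was 3 or 2. The placebo share of 3 in 10 called lower lay near that of all genes. Both comparisons hold day and any separate normalization of the days together, which cannot be told apart, and the median of all genes itself differed by -0.205 under anti-miR-182 and by -0.179 under placebo.

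Trpv5 had the largest difference with time in both treatments. Its group means were 7.56 ± 0.53 at day 7 and 8.81 ± 0.73 at day 2 under anti-miR-182, and 7.41 ± 0.93 at day 7 and 8.87 ± 0.10 at day 2 under placebo (SD, n = 3 each). All day 7 arrays lay below all day 2 arrays of the same treatment. Its call ended under placebo in limma without replicate 1 or 3 of day 2 (adjusted p = 0.0521 and 0.0557) or replicate 1 of day 7 (0.0737), and under anti-miR-182 without replicate 1 (0.137) or 2 (0.0862) of day 2 or replicate 1 (0.0719) or 3 (0.143) of day 7. Trpm7 under placebo ended without replicate 2 of day 7 (adjusted p = 0.0525 in limma), and Slc12a3 under anti-miR-182 without replicate 3 of day 7 (0.0699). Calls were gained under placebo for Slc12a3 when replicate 1 or replicate 3 of the treated day 2 arrays, which enters only the shared spread, was left out (adjusted p = 0.0204 and 0.0257 in limma), and for Trpm6 without replicate 3 of day 7 (0.0495). Calb1 under anti-miR-182 ended without replicate 1 (0.0536) or 3 (0.0968) of day 2 or replicate 2 (0.111) or 3 (0.0962) of day 7.

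Slc12a3 averaged 8.36 at day 7 and 9.44 at day 2 under anti-miR-182, and 8.32 at day 7 and 9.07 at day 2 under placebo, where its difference of -0.75 ± 0.29 did not pass (adjusted p = 0.068 in limma). Its day 7 arrays lay below all day 2 arrays under placebo and overlapped them under anti-miR-182. The day 7 arrays lay below all day 2 arrays for 4 of 10 genes under anti-miR-182 (Trpm6, Trpm7, Trpv5 and Wnk1), against 35% of all genes, and for 5 of 10 under placebo (Slc12a3, S100g, Trpm7, Trpv5 and Wnk1), against 40% of all genes. Wnk1 is counted by its brighter row. Its dimmer row overlapped under anti-miR-182 (7.87 to 8.16 at day 7, 7.52 to 8.2 at day 2) and lay below under placebo (7.63 to 7.96, against 8.16 to 8.4). The day 7 arrays lay above all day 2 arrays for 0 of 10 under anti-miR-182, against 5.36% of all genes, and for 2 of 10 under placebo (Pvalb and Klhl3), against 8.38%. The differences of Slc8a1 and Trpm6 with time did not pass in either treatment.

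The calls with time depended on how the days were put on 1 scale. With all arrays quantile normalized together, the medians of all genes differed by -0.0073 under anti-miR-182 and -0.0096 under placebo, and of the calls over all genes 47.1% and 49.1% were higher, where 9.74% and 15.1% were higher as deposited. Then 0 of 10 passed under anti-miR-182 and 1 of 10 under placebo, S100g (-0.45, adjusted p = 0.04 in limma). Trpv5 differed by -1.01 and -1.21 and did not pass (adjusted p = 0.131 and 0.0711 in limma). With each array centred on its median, 1 of 10 passed under anti-miR-182, Slc12a3 (-0.89, adjusted p = 0.0485 in limma), and 3 of 10 under placebo: Trpv5 was lower (-1.31, 0.0355) and Pvalb (0.37, 0.0414) and Klhl3 (0.41, 0.0457) were higher. Of the calls over all genes 45.6% and 45.8% were then higher. Over all genes 14.7% and 15.9% were called after quantile normalization and 13.7% and 17.8% after centring, under anti-miR-182 and placebo in that order. Beside Pvalb, 4 of 5 skeletal muscle markers were higher at day 7 under placebo. After centring 4 of 5 passed as higher (median 0.51), against 8.15% of all genes. As deposited 2 of 5 did (Tnnt3 and Myl1, both dim rows), against 4.22%. After quantile normalization 3 of 5 did, against 7.81%, and there Pvalb did not pass (0.29, adjusted p = 0.101 in limma). Under anti-miR-182, where Pvalb did not pass, 3 of 5 passed as higher after centring, against 6.23% of all genes. As deposited 3 of 5 also did there, against 2.68%. Acta1 was lower at day 7 in both treatments. The mean level of the 5 muscle markers relative to all genes was -0.503, -0.621 and -0.39 at day 7, against -0.948, -0.973 and -1.003 at day 2 under placebo. Under anti-miR-182 it was -0.598, -0.599 and -0.611 at day 7, against -0.849, -1.083 and -0.979 at day 2. The day 7 arrays lay above the day 2 arrays in both treatments, and the part of this in the Pvalb value was not tested. Slc12a3, Trpv5, Calb1, S100g, Trpm6 and Trpm7 had differences below 0 in both treatments under these 3 scalings. Some of these lay within 1 SE of 0. S100g under anti-miR-182 was -0.0025 ± 0.14 after centring and -0.0097 ± 0.14 after quantile normalization. Trpm6 under placebo was -0.0070 ± 0.15 after quantile normalization. Under anti-miR-182, Pvalb and Klhl3 were above 0 in both rescaled sets (0.099 to 0.144 and 0.125 to 0.126), where they were -0.041 and -0.059 as deposited, and Wnk1 under placebo was 0.037 after quantile normalization and -0.28 as deposited.

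**Figure D5:**
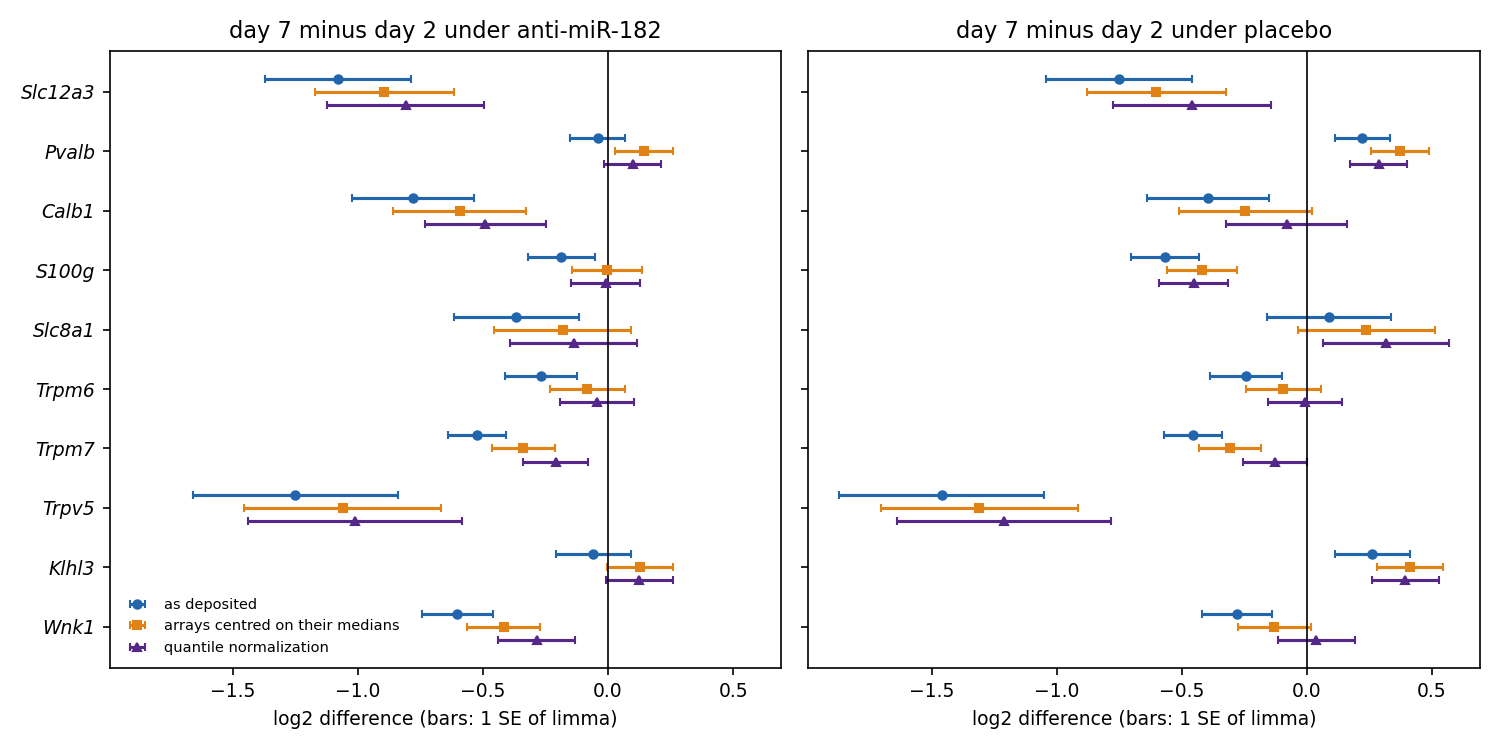
Day 7 minus day 2 difference in log2 signal (x axis) for each gene (y axis) under anti-miR-182 (left) and placebo (right), as deposited, with arrays centred on their medians and after quantile normalization, with bars of 1 SE of limma (n = 3 per group). Trpv5 lies between -1.46 and -1.01 in all 6 cases, while Trpm6 lies between -0.27 and -0.0070.

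Of the wider lists, 9 of 16 calcium and magnesium genes fell and 1 rose past the test in limma between the days under anti-miR-182, and 5 of 16 fell under placebo, beside the 24.9% and 23.7% of all genes called lower. After quantile normalization 4 fell and 1 rose under anti-miR-182 and 4 fell under placebo, where 7.79% and 8.1% of all genes were called lower. Kl fell in both treatments as deposited (-0.83 ± 0.14, adjusted p = 0.00127 under anti-miR-182, and -0.85 ± 0.14, 0.000981 under placebo, in limma) and after quantile normalization (adjusted p = 0.0286 and 0.0259). So did the vitamin D receptor gene Vdr, with -0.90 ± 0.16 under anti-miR-182 and -1.06 ± 0.16 under placebo (adjusted p = 0.00205 and 0.000766 in limma), and Cyp24a1, the enzyme that breaks down active vitamin D, with -1.57 ± 0.30 and -1.67 ± 0.30 (0.0029 and 0.00203). Vdr and Cyp24a1, and Trpv6, a close relative of Trpv5, are named after their values were seen. Trpv6 rose under anti-miR-182 (0.79 ± 0.24, adjusted p = 0.0276 in limma), where Trpv5 fell, and had 0.39 ± 0.24 under placebo (adjusted p = 0.241). Egf fell under anti-miR-182 (-1.46 ± 0.34, adjusted p = 0.00791 in limma) and had -0.39 ± 0.34 under placebo. Of the 19 sodium chloride genes 8 fell under anti-miR-182 and 4 under placebo as deposited, the placebo share lying near that of all genes, and after quantile normalization 0 and 0 fell and 0 and 1 rose.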

How the data were processed

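Log2 signals of rat kidney total RNA on 12 arrays were used as deposited. Per the labels, Trizol was used for extraction, and amplification with biotin labelling started from 200 ng. RMA, named in the submitters' processing notes, corrects background, normalizes arrays and combines probes, and its version is not given in the sources used here. The deposited log2 table has 190 rows without values on the 6 day 2 arrays, and the days differ in level, so they may have been normalized apart, which is not stated.

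Rows were named by the platform annotation, with symbols updated through RefSeq gene IDs. Of 19086 annotated rows 18511 had 1 symbol and 575 several. Where a gene had several rows, its brightest row by mean signal was tested. A model of 4 group means was fitted to 18166 genes with limma 3.58.1 (R 4.3.3), with eBayes and Benjamini-Hochberg adjustment over all genes in each of 6 comparisons, and a gene passed under an adjusted p of 0.05. The steps were tested on simulated data. Of the 12 arrays none was left out, and no label pairs animals across groups. Nothing but the animal codes in the titles says that samples of a group are separate animals.

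The genes, lists, tests and alternatives were chosen with earlier results of these data known. Named genes were the 10 members, from each other list up to 3 genes with the smallest unadjusted p over both days, 5 markers (Umod, Slc12a1, Slc34a1, Aqp2 and Havcr1) and the 3 genes closest to Slc12a3, Calb1 and Trpm6. Of the lists of other cell types, values are printed for the 5 markers only. Alternatives were each day alone, eBayes with a trend or robust, array weights, the dimmest 25% or 50% of genes left out, quantile normalization, median centring, averaging the rows of a gene, testing every row, and each array left out.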

Additional observations from a re-analysis of the deposited data

How the results depend on the processing

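For the treatment at day 2, treatment at day 7, treatment over both days and treatment difference between days, 0 of the 10 genes passed under every alternative run. The dimmest 25% filter leaves 9 of the 10 genes tested (Pvalb is removed) and the 50% filter 8 (S100g also). For day 7 minus day 2 under anti-miR-182 the count of 5 was 0 after quantile normalization, 1 after median centring and 3 with every row tested. It was 4 with eBayes robust, with array weights and with the mean of a gene's rows, and 2 to 5 with an array left out. For day 7 minus day 2 under placebo the count of 3 was 1 after quantile normalization, 2 with the dimmest 50% left out, 4 with array weights, which added Slc12a3 (adjusted p = 0.0206 in limma), 4 with the mean of a gene's rows, which added Wnk1 (0.0441), and 2 to 4 with an array left out. Calls over all genes with time numbered 5002 under anti-miR-182 and 5080 under placebo as deposited, 2676 and 2890 after quantile normalization, and 2482 and 3228 after median centring. Of 1262 single-gene values under an alternative, 1180 kept direction and side of the threshold, 31 lost the call, 7 gained it and 44 changed sign, and the cause was not tested.

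With the mean of the rows, Wnk1 became -0.016 (treatment at day 2), 0.0538 (day 7) and 0.0698 (difference between days), its second row running the other way. With array weights Wnk1 at day 7 became 0.00783 and the Trpm6 difference between days 0.002, and with median centring the Trpm6 value was 0.0111. Day 7 minus day 2 under anti-miR-182 became 0.144 for Pvalb and 0.126 for Klhl3 with median centring and 0.0994 and 0.125 with quantile normalization, and under placebo 0.0367 for Wnk1 with quantile normalization. With an array left out, values that changed sign ranged at day 2 from -0.0144 to 0.727 for Slc12a3, -0.0587 to 0.141 for S100g and -0.436 to 0.297 for Trpv5. At day 7 they ranged from -0.212 to 0.239 for Slc12a3, -0.0103 to 0.179 for Pvalb, -0.222 to 0.222 for Calb1, -0.121 to 0.285 for Slc8a1, -0.0345 to 0.298 for Trpm6, -0.0882 to 0.0918 for Trpm7, -0.331 to 0.593 for Trpv5, -0.118 to 0.0435 for Klhl3 and -0.191 to 0.0545 for Wnk1. Over both days Trpv5 ranged from -0.196 to 0.266. The difference between days ranged from -0.686 to 0.0554 for Slc12a3, -0.2 to 0.132 for Trpm6 and -0.27 to 0.653 for Trpv5. With time, Klhl3 ranged from -0.239 to 0.0812 under anti-miR-182 and Slc8a1 from -0.0687 to 0.206 under placebo.

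No paired analysis was possible because the labels give no replicate numbers that link animals across groups. Dim rows, without detection calls, limit what Pvalb can show.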
